A study of Mus musculus with 5 samples.

Results

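Tmem176a and Tmem176b are a pair of adjacent genes on mouse chromosome 6, and both gave far higher array signals in a cultured CD8 T cell clone than in peptide-stimulated spleen cell cultures, labelled as CD8 T cells, of mice transgenic for the same T cell receptor. The members are all probe sets, short oligonucleotide groups that each report 1 transcript signal, whose platform annotation names 1 of these 2 genes and no other. There are 4 such probe sets among 34945 with a single gene symbol, 3 for Tmem176a and 1 for Tmem176b, and they represent 2 of 18193 named genes. The pair was chosen because of its difference between clone and transgenic cells, so that difference is described here without a test.

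The 5 samples are total RNA, each hybridised to an Affymetrix mouse array read in 1 colour. The clone group is G9C8, a single CD8 T cell clone grown in vitro, and its 3 samples come from as many frozen vials. No label gives the strain or sex from which the clone came. The transgenic group is spleen cells of 2 NOD.G9C8 mice on the NOD/LtJ background, aged 4 to 8 weeks, which carry the T cell receptor of that clone as a transgene. Both groups received an insulin B chain peptide (10 µg/ml) over 3 days and then a rest of 2 days with IL2 (5 IU/ml), so neither group is unstimulated. The labels name no sort of the spleen cultures, and the clone side is 1 clone, so the spread over its arrays is a spread over vials. Signals are linear array units, scaled by the submitters' software so that every array has the same trimmed mean. Differences are given as clone minus transgenic on the log2(signal + 20) scale, which understates changes of dim genes. In bulk RNA, fewer cells of a type and less RNA per cell cannot be told apart. The T cell marker Cd3e, a chain of the receptor complex, was bright on all 5 arrays, at 5323, 6498 and 5697 on the clone arrays and 5325 and 4879 on the transgenic arrays. Cd8a, the coreceptor chain, gave 8252 to 9188 on clone arrays and 12884 and 15500 on transgenic arrays.

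Tmem176a and Tmem176b encode related proteins that cross the membrane several times and resemble the MS4A family, to which the B cell antigen CD20 belongs. They are found in membranes of intracellular vesicles and have been described as cation channels. They are known mainly from dendritic cells and macrophages and from lymphocytes of the type 17 kind, which make IL17. TMEM176B, also called TORID, is known to restrain activation of the NLRP3 inflammasome, the complex that activates caspase 1.

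The start sites listed for the 2 genes lie close together and point away from each other, so that a stretch of DNA lies upstream of both. In RefSeq (GRCm38.p6) the promoter table gives 2 start sites for Tmem176a on the plus strand and 3 for Tmem176b on the minus strand. Among the start sites in that table, the closest divergent pair is 109 bases apart, and the 300-base windows around them share 208 bases. The window of Tmem176a is printed because it holds this shared stretch; the capitals mark the 108 bases between the nearest start sites of Tmem176b and Tmem176a. The window of the most distant Tmem176b start site in that table follows, because it shows the promoter sequence on the other side. Capitals in this second window mark each CANNTG, the E-box letters. The coordinates are chr6:48841233-48841532 on the plus strand for the first and chr6:48840939-48841238 on the minus strand for the second.
Tmem176a: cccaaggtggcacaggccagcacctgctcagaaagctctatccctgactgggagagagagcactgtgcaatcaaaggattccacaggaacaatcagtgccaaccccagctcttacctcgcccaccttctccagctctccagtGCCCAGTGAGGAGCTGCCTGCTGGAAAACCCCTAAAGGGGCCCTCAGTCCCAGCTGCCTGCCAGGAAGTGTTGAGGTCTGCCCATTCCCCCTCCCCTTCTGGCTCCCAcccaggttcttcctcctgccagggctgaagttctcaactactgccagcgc
Tmem176b: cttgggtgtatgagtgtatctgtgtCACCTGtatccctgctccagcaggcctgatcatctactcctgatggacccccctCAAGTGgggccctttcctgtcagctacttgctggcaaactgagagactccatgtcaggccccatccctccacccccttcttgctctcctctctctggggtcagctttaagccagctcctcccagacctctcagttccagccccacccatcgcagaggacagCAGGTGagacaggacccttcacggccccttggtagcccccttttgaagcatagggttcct

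Both windows are poor in CpG. The Tmem176a window printed above holds 2 CpG dinucleotides and the Tmem176b window 2, against a median of 7 over the 32851 promoter windows of the table, and 76.7% of all windows hold more. The other 3 windows of the pair hold 1, 4 and 5. Searched on both strands, none of the 5 windows holds AGGTCA, half-site letters of nuclear receptors, which 16.3% of all windows hold. None holds TAGGTCA, a longer form that contains AGGTCA (2.61% of all windows), TGANTCA, the AP-1 letters (7.81%), or CCAAT (37.4%). CANNTG, which reads the same on both strands, occurs 1 to 3 times in each of the 5 windows and in 72.3% of all windows. One CANNTG lies within the 108 bases between the nearest start sites, beginning 58 bases before the Tmem176a start.

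Tmem176b was measured by the probe set 1418004_a_at. It gave 14921, 15438 and 14711 on the clone arrays and 177.4 and 312.7 on the transgenic arrays. The clone arrays lay together far above both transgenic arrays, and the lowest clone signal was 47.0 times the highest transgenic signal. Group means were 15023 ± 374 (SD, n = 3) in clone and 245.1 ± 95.7 (SD, n = 2) in transgenic cells, a 61.3-fold ratio and a difference of 5.87 on the log2 scale. Ranked by difference, Tmem176b was number 7 of 12446 genes that passed the filter on dim signals. The highest signal of any probe set was 25836 to 30579, depending on the array.

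Tmem176a was measured by 3 probe sets that all placed the clone arrays above the transgenic ones. The brightest, 1423909_at, gave 8053, 8862 and 8419 on the clone arrays and 266.5 and 258.4 on the transgenic arrays. Its means were 8444 ± 405 (SD, n = 3) and 262.4 ± 5.73 (SD, n = 2), a 32.2-fold ratio and a log2 difference of 4.90, number 17 in the ranking. The probe set 1425603_at gave 5590, 5097 and 5366 against 105.8 and 166.9, a log2 difference of 5.13. The third, 1441811_x_at, is of a type marked as able to bind other transcripts. It gave 4631, 4175 and 4797 against 71.3 and 140.1, a difference of 5.23. In all 3 sets the clone arrays lay close together and no clone signal came near a transgenic one, the lowest clone signal being 29.8 to 30.5 times the highest transgenic signal. The differences of the 3 sets spanned 4.90 to 5.23. Over all its RefSeq transcripts, the span of Tmem176b reaches past these start sites and contains that of Tmem176a, and whether probes of one gene read transcripts of the other was not tested. Because probe sets bind with different strength, the signals do not say which of the 2 genes has more transcript.

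**Figure D1:**
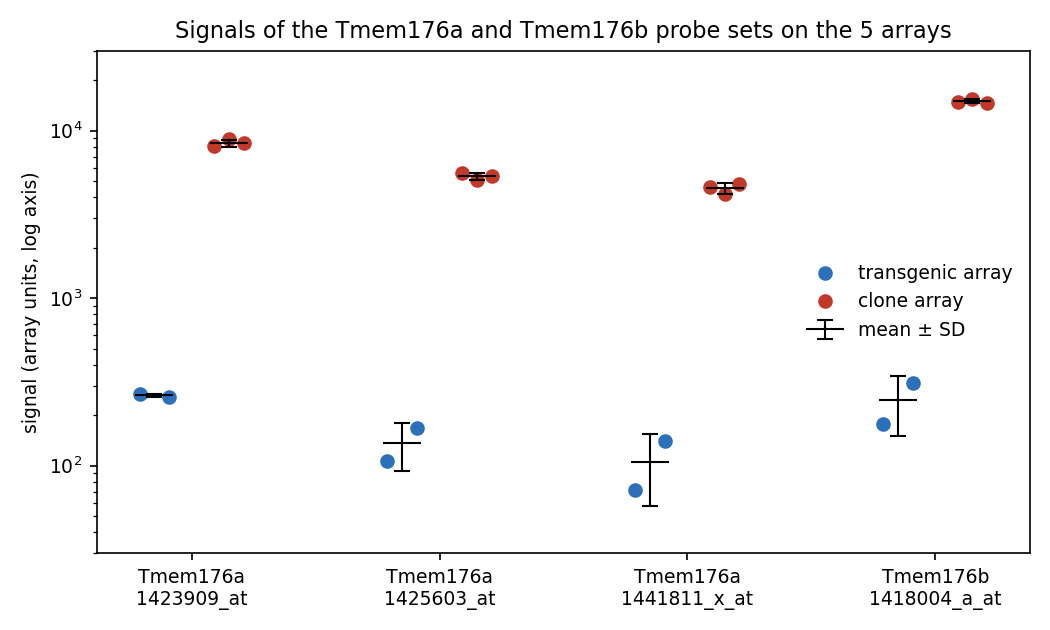
Signals (array units, log axis) of the 4 probe sets of Tmem176a and Tmem176b on the 2 transgenic and 3 clone arrays; points are arrays and black marks the mean ± SD. Clone signals run from 4175 to 15438 and transgenic signals from 71.3 to 312.7, with no overlap in any probe set.

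Every array of the clone lay above every transgenic array in 4 of 4 probe sets; 31.9% of the 12446 genes tested have all clone arrays above and 32.6% have them all below, and since the rule used this contrast nothing is read from the count. A log2 difference of at least 4 toward clone was seen for 43 genes and of at least 5 for 15 genes. A difference of at least 5 toward transgenic cells was seen for 18.

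Within the groups the pair behaved unevenly. Across the 3 vials of the clone the coefficient of variation was 2.49% for Tmem176b and 4.61 to 7.11% for the Tmem176a probe sets. Between the 2 transgenic mice it was 39.0% for Tmem176b, and 2.18, 31.7 and 46.0% for the Tmem176a probe sets 1423909_at, 1425603_at and 1441811_x_at. In 3 of the 4 probe sets replicate 2 of the transgenic group was the higher one, with ratios to replicate 1 of 1.76 for Tmem176b and of 1.58 and 1.96 for 1425603_at and 1441811_x_at. The brightest Tmem176a probe set gave a ratio of 0.970 and did not share this pattern. Over all genes tested, replicate 2 was higher in 51.5%, with a median log2 difference of 0.01. With 1 array per mouse, a difference between the mice has no replicate check.

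Tmem176 transcripts are known from myeloid cells, and spleen cultures can hold such cells, so macrophage and monocyte markers were read on the same arrays. Of 15 such genes with a probe set, 11 passed the filter, and 8 of them were lower in clone, none higher and 3 not called, with a median difference of -0.83. Called means a Benjamini-Hochberg adjusted p under 0.05 in limma; over all genes 43.8% were called, 22.0% higher and 21.7% lower in clone, with a median difference of -0.01. The summed signal of the 15 genes was 5516 to 6160 on clone arrays and 15372 and 14678 on transgenic replicates 1 and 2. Ctss, a protease gene named after its values were seen, alone gave 3699 to 3884 in clone and 8938 and 5107 in transgenic cells. It made up most of the clone sums, which therefore say little about the other markers. No marker had a signal of 0. Lyz2, the macrophage lysozyme, gave 274.1, 326.9 and 237.1 in clone and 3497 and 5549 in transgenic cells (difference -3.90, SE 0.21; limma adjusted p = 3.42e-06). Tyrobp, a signalling adaptor of myeloid and natural killer cells, gave 17.5 to 27.8 against 379.3 and 568.7 (-3.50), and the oxidase subunit gene Cybb (-2.84) and the endotoxin coreceptor gene Cd14 (-2.77) were lower too. Csf1r, the receptor of macrophage growth factor, was lower by a smaller amount (-0.65), a call that ended without transgenic replicate 2. The complement genes C1qa, C1qb and C1qc, named after their values were seen, lay below the filter, and the groups overlapped for C1qa and C1qb. C1qb gave 45.4, 60.1 and 61.1 in clone and 33.2 and 75.6 in transgenic cells. The 3 markers not called, named after their values were seen, were Cd68 (0.50), Fcgr1 (0.34) and Spi1 (-0.73). With quantile normalization, and with the replicate block, 1 macrophage marker was called higher. Without transgenic replicate 2, 5 macrophage markers were called lower, and with the stricter filter on dim signals 3.

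Between the mice, most myeloid markers and most probe sets of the pair were higher on the same array. Of the 11 macrophage and monocyte genes tested, 8 were higher on replicate 2, against 51.5% of all genes. Their median log2 difference was 0.43, next to 0.75 for Tmem176b and 0.57 and 0.81 for the Tmem176a probe sets 1425603_at and 1441811_x_at. Lyz2 was higher by 0.66 and Cybb by 0.74. The protease gene Ctss, named after its values were seen, differed by -0.81 and 1423909_at differed by -0.04. The summed signal of the 15 macrophage and monocyte genes went the other way, at 15372 on replicate 1 and 14678 on replicate 2. Higher signals on replicate 2 were not limited to macrophage genes. Replicate 2 was higher for 5 of 6 innate lymphoid, 5 of 7 stromal and 7 of 10 dendritic cell markers tested. The same held for 9 of 14 type 17, 7 of 11 class II and 7 of 12 MS4A genes. It was higher for 7 of 18 acidification, 3 of 7 B cell, 3 of 13 inflammasome and 2 of 10 T cell identity genes. The part of myeloid RNA in the low transgenic signal of the pair was not tested.

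**Figure D2:**
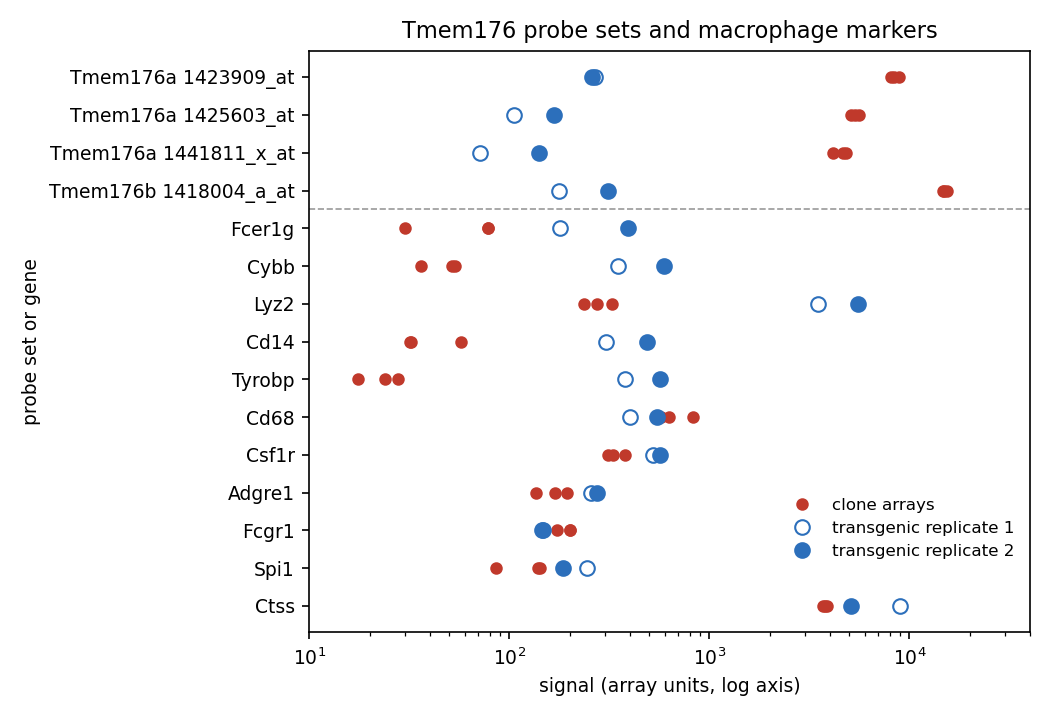
Signals (array units, log axis) of the 4 Tmem176 probe sets, above the dashed line, and of the 11 tested macrophage and monocyte markers; each point is an array. Tmem176 signals are highest on clone arrays (4175 to 15438), where Lyz2 is 237.1 to 326.9 against 3497 and 5549 in transgenic cells.

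Dendritic cells also express the pair. Of 10 tested dendritic cell markers, 2 were higher, 3 lower and 5 not called, with a summed signal over 13 genes of 3470 to 4386 in clone and 3493 to 4046 in transgenic cells. The integrin gene Itgax gave 102.8 to 128.6 against 367.5 and 800.1 (-2.07, SE 0.30; limma adjusted p = 0.000764). Irf8, a factor of dendritic cell development (-1.23), and Zbtb46, a marker of conventional dendritic cells (-0.74), were lower as well; both calls ended without transgenic replicate 1, and that of Zbtb46 also without transgenic replicate 2. Batf3, a transcription factor gene needed by cross-presenting dendritic cells and also made by activated T cells, was higher at 557.6 to 1274 against 74.6 and 260.5 (2.41). Bst2, the other higher member (0.68), is also induced by interferon and was named after its values were seen. It gave 1165 to 1312 in clone and 747.8 and 811.3 in transgenic cells. Since the summed signal pools these higher and lower genes, it does not show how the single dendritic cell markers differ. With the stricter filter, and also without transgenic replicate 1, only 1 dendritic marker was called lower. Class II antigen processing, a process in which TMEM176 proteins have been placed, is represented by 11 tested genes. Of these, 9 were lower in clone, none higher and 2 not called, with a median of -1.55. The share called was 81.8%, against 43.8% of all genes. H2-Aa, a chain of the class II molecule, gave 4.90 to 19.7 in clone and 568.9 and 760.6 in transgenic cells (-4.42, SE 0.31; limma adjusted p = 1.45e-05). The protease gene Ctsl (-4.04), the class II chain gene H2-Ab1 (-3.98) and the invariant chain gene Cd74 (-2.26) followed.

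Markers of other lineages are given by their counts, to be read against the 43.8% of all genes called, and by sums over all listed genes with a probe set. Of 7 tested B cell markers, 1 was higher, 2 lower and 4 not called, so that 42.9% were called, with summed signals of 4603 to 5927 in clone and 8563 and 10747 in transgenic cells. The higher one was the B cell factor gene Ebf1 (2.44), and Cd79b, a chain of the B cell receptor complex, was lower (-3.92). Ighm, the heavy chain gene of IgM, was lower too (-1.04), a call that ended with the mean over its probe sets. Ighm alone gave 3449 to 4883 in clone and 7044 and 9178 in transgenic cells. The B cell sums were therefore mostly Ighm and say little about the other B cell markers. Of 14 listed innate lymphoid and gamma delta T cell markers, 7 had a probe set. The listed T cell receptor genes Tcrg-C1, Tcrg-C2 and Trdc were not analysed here, so no gamma or delta chain was read. Of the 6 tested markers, 2 were higher and 3 lower, so that 83.3% were called. The higher genes were Id2, an inhibitor of DNA binding (0.88, named after its values were seen), and the transcription factor gene Sox13 (0.96); the lower ones were the transcription factor genes Eomes (-4.14) and Gata3 (-2.50) and the receptor gene Kit (-3.95). Their summed signals were 13114 to 14197 in clone and 10132 and 11084 in transgenic cells. Id2 alone gave 12273 to 13432 in clone and 6228 and 7852 in transgenic cells. It made up most of these sums, which therefore say little about the other markers. Of 7 stromal, epithelial and endothelial markers, none was higher and 1, the adhesion gene Pecam1, was lower (-1.54); their sums were 1709 to 1942 and 2493 and 2805. The 2 tested stromal markers of highest signal among those not called were Epcam (0.05) and Col1a2 (-0.26). Of 10 tested T cell identity genes, 5 were lower, 5 not called and none higher, a share near that of all genes. The lower ones were led by Cd2 (-1.75), Cd247 (-1.37), Cd8a (-0.68) and Cd8b1 (-0.65), with sums of 82938 to 95088 and 104857 and 114319. The Cd8a call ended with the mean over its probe sets.

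Among MS4A genes, the family that the TMEM176 proteins resemble, none was higher in clone. Of 12 tested genes 3 were lower and 9 not called (median -0.25), so that 25.0% were called against 43.8% of all genes. All genes tested gave 22.0% higher and 21.7% lower in clone. Ms4a7, a macrophage member, gave 45.7 to 100.6 in clone and 267.6 and 316.9 in transgenic cells (-1.81, SE 0.29; limma adjusted p = 0.00141). Ms4a6c was lower by a difference of -0.97. Ms4a6b was lower by -0.38, a call that ended with the mean over probe sets, without the intensity trend, with the replicate block and without transgenic replicate 1. Ms4a4b, named after its values were seen, is a T cell member and was bright in both groups, at 22719 to 26407 against 20798 and 22585, with a difference of 0.16 that was not called. Under quantile normalization 1 MS4A gene was called higher. Members of one family are close in sequence, and Ms4a4c and Ms4a6d, named after their values were seen, were read by probe sets of a type marked as able to bind other transcripts.

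The type 17 list holds genes of the programme of lymphocytes that make IL17. Of its 14 tested genes 6 were higher in clone, 1 lower and 7 not called, so that 7 of 14 were called, next to 43.8% of all genes, with a median of 0.15. Rora, a nuclear receptor gene, gave 5812, 7586 and 6282 in clone and 759.4 and 614.1 in transgenic cells (3.22, SE 0.14; limma adjusted p = 1.02e-06). Ltb4r1, a receptor gene for leukotriene B4, was at 343.5 to 466.1 against 9.50 and 17.8 (3.59), and the transcription factor genes Irf4 (2.21) and Maf (1.92) were higher. The other higher genes were Sox13 (0.96) and Il12rb1 (0.90), and the lower one was Stat3 (-0.46), these last 2 named after their values were seen. Il17a, the signature cytokine gene, stayed between 135.0 and 246.4 on all 5 arrays and was not called (-0.37); it was named after its values were seen.

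The inflammasome list was divided. Of 13 tested genes 4 were higher, 4 lower and 5 not called, or 61.5% called against 43.8% of all genes, with a median of 0.07. Nlrp3, the sensor whose activation TMEM176B is known to restrain, gave 1886, 2556 and 2396 in clone and 346.6 and 331.8 in transgenic cells (2.67, SE 0.14; limma adjusted p = 3.69e-06). Aim2, a sensor of cytosolic DNA, gave 834.5 to 1122 against 211.8 and 236.2 (2.03). Casp1, the caspase of the complex, gave 4738 to 4956 against 1622 and 1982 (1.43, SE 0.10; limma adjusted p = 1.87e-05), and its substrate gene Il18 was higher as well (1.15). In the other direction, Txnip, whose product binds thioredoxin, was at 1909 to 2803 against 6991 and 7213 (-1.65). P2rx7, the ATP-gated channel gene upstream of NLRP3 (-1.27), the pore protein gene Gsdmd (-0.76) and the adaptor gene Pycard (-0.68) were lower; they and Il18 were named after their values were seen. Mefv, which encodes the sensor pyrin and was named after its values were seen, differed by 0.05 and was not called. Il1b, also named after its values were seen, differed by 0.07 and was not called. All 8 calls held under each of the 17 alternatives.

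**Figure D3:**
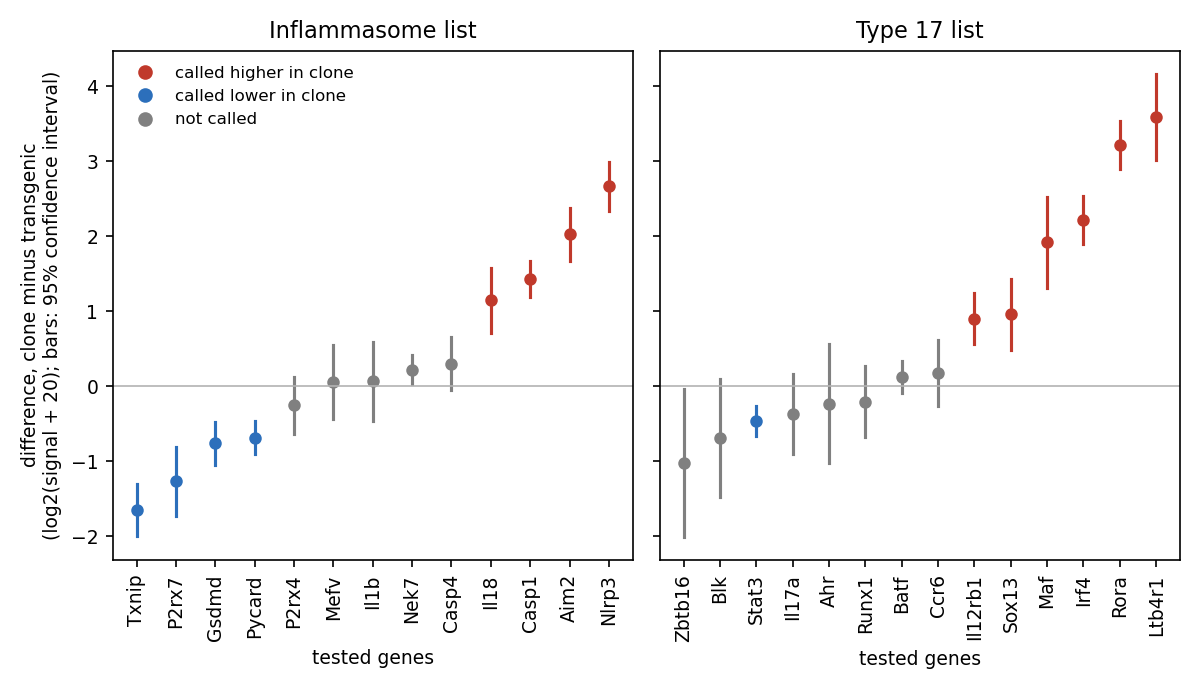
Differences between clone and transgenic cells, log2(signal + 20), with 95% confidence intervals, for the 13 tested inflammasome genes and the 14 tested type 17 genes. Nlrp3 (2.67) leads the first list and Ltb4r1 (3.59) and Rora (3.22) the second, and both lists also hold lower genes.

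TMEM176 proteins are found in endosomes, so genes linked to the acidity of endosomes and phagosomes were read, including subunits of the phagosome oxidase. Of 18 tested genes 5 were higher, 2 lower and 11 not called (median 0.02). The share called, 38.9%, is close to the 43.8% of all genes. Cybb (-2.84), which encodes a subunit of the phagosome oxidase, had the largest difference, followed by the proton pump subunit gene Atp6v1g1 at 6036 to 6380 against 2821 and 3082 (1.06), the chloride transporter gene Clcn5 (0.97) and the pump subunit gene Atp6v1h (0.72). The Atp6v1h call ended with the mean over its probe sets (0.04). The number called higher was 3 under 9 alternatives, among them quantile normalization, no filter and each array left out.

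The chromosomal surroundings of the pair were not part of the choice. The 10 named protein-coding genes on each side in RefSeq order include the GIMAP cluster, a group of GTPase genes of lymphocytes, before the pair. Of the 20 neighbours 17 passed the filter, of which 3 were higher, 6 lower and 8 not called, with a median of -0.32 and a range of -3.76 to 1.92. Over all genes 22.0% were higher and 21.7% lower. Gimap3, the nearest named gene on one side, gave 6728, 7435 and 6097 in clone and 7693 and 7205 in transgenic cells (-0.15, 95% confidence interval -0.38 to 0.09, limma adjusted p = 0.283). Aoc1, the amine oxidase gene nearest on the other side, gave 36.7 to 67.3 against 156.6 and 158.1 (-1.26, SE 0.30; limma adjusted p = 0.00904), a call that ended without either transgenic replicate. Neither immediate neighbour was called higher in the clone.

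Farther out, the GIMAP genes were bright in both groups except Gimap5, and all 8 had a difference below 0. Of these, 4 were called lower, led by Gimap6 at 3138 to 4818 against 8032 and 8200 (-1.01) and Gimap4 (-0.60). The calls of Gimap7 (-0.50) and Gimap8 (-0.46), both named after their values were seen, ended without transgenic replicate 1. That of Gimap8 also ended without transgenic replicate 2, without the intensity trend and with the replicate block. Gpnmb, a glycoprotein gene strongly expressed in macrophages, had the largest neighbouring difference, at 57.7 to 134.0 against 1182 and 1907 (-3.76, SE 0.31; limma adjusted p = 3.46e-05). Repin1 (1.28) and the neuropeptide gene Npy (1.92) were higher. The Npy call ended without transgenic replicate 2. Tra2a, the other higher neighbour (0.35), was named after its values were seen, and its difference was -0.05 with the mean over probe sets. Its call also ended with the replicate block and without either transgenic replicate. The highest neighbour difference, 1.92, compares with 4.90 and 5.87 for the pair. Without transgenic replicate 1 only 3 neighbours were called lower, and without transgenic replicate 2 only 1 was called higher.

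**Figure D4:**
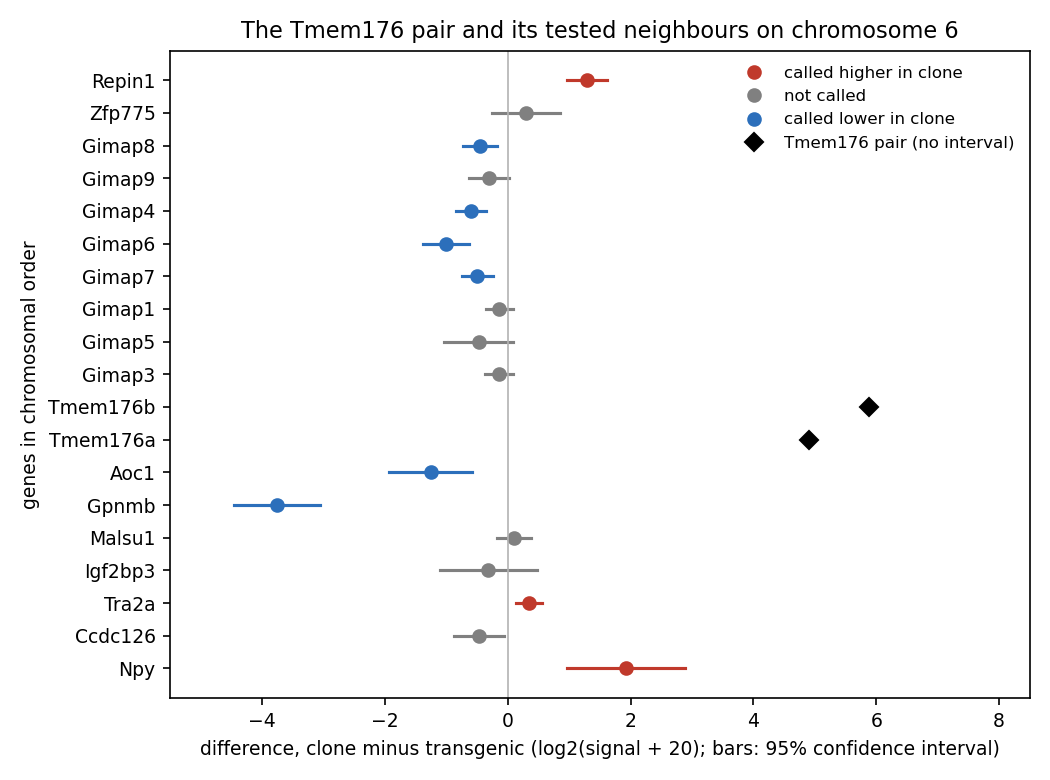
Differences between clone and transgenic cells, log2(signal + 20), for Tmem176b, Tmem176a and the 17 tested neighbours in chromosomal order; lines are 95% confidence intervals, and the pair has none because it was chosen on this contrast. Tmem176b and Tmem176a stand at 5.87 and 4.90, between Gimap3 at -0.15 and Aoc1 at -1.26.

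The genes with the most similar pattern were found by the root mean square difference of log2 values, each gene centred on its own mean over the 5 arrays. With 5 arrays in 2 groups the measure is set mainly by the size of the group difference. Nearest to Tmem176b were Tnfsf11, the gene of the cytokine RANKL, at a distance of 0.14, Cited4 (0.24), Elavl2 (0.27), Wwtr1 (0.28) and Xist (0.30). Tnfsf11 gave 1929, 1753 and 2120 in clone and 8.10 and 18.8 in transgenic cells, so it passed the filter of 88.2 through the clone arrays alone. Xist gave 13107, 15093 and 13455 in clone and 287.6 and 315.0 in transgenic cells. Whether the 2 groups differ in sex was not tested. The next 5 were Krt20 (0.31), Cdk14 (0.33), Akr1c12 (0.37), Rnf152 (0.41) and Csf2 (0.48). Tmem176a itself was number 11, at 0.54. Nearest to Tmem176a were the protease inhibitor gene Serpinb1a (0.16), the phosphatase gene Ptpn5 (0.17), Tdrkh (0.18), Myl10 (0.18) and Gas2 (0.20). Serpinb1a gave 5744, 6399 and 5307 in clone and 206.7 and 227.0 in transgenic cells. The next 5 were Rnf152 (0.22), Akr1c12 (0.23), Cdk14 (0.24), Plscr4 (0.26) and BC064078 (0.26). The lists of 10 share 3 genes, Rnf152, Akr1c12 and Cdk14. Only Xist, Serpinb1a and Myl10 in these lists had transgenic means above the filter of 88.2, at 301.3, 216.85 and 386.75. All the other listed genes had transgenic means below it and, like Tnfsf11, passed through their clone signals. The likeness depends on the pseudocount, since with 1 in place of 20 only 4 of the 10 genes nearest to Tmem176b and 3 of those nearest to Tmem176a stayed among the 10 nearest.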

How the data were processed

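Affymetrix intensity values of 5 arrays were used as deposited; they come from GCOS, per the submitters' processing notes, with no version given, and the 2% trimmed mean is 500 on each array. Of 45101 probe sets, 64 controls were left out. Genes were named by probe sets with 1 symbol and represented by the brightest; those with a mean signal of at least 88.2, the 40th percentile, were tested (12446). The number of arrays limits the precision.

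On log2(signal + 20), clone and transgenic arrays were compared two-sided by limma (version 3.58.1, under R 4.3.3), using eBayes moderation that follows intensity and Benjamini-Hochberg adjustment. Since the clone is 1 clone in 3 vials and the transgenic group 2 mice, no p-value covers variation among clones. On simulated data for this comparison (12446 genes, 200 changed, 20 runs) the fit recovered 76.3% of 2-fold and 96.8% of 4-fold changes, and 6.48% of its calls were unchanged genes. In the data 5448 genes were called, far more than were changed in the simulation, so these rates need not hold for the data.

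The members and the 11 gene lists were chosen with earlier results of these data known. Of 163 listed genes 114 were tested, 23 lay below the filter and 26 were not analysed here. Named are the pair, up to 4 called members of largest difference per list (and up to 2 brightest uncalled ones where fewer than 2 are called), a fixed set of marker genes that includes Rora, Nlrp3, Casp1, Lyz2, Csf1r, Itgax, Cd3e and Cd8a, the nearest neighbours and up to 6 called ones of largest difference, and the 10 most alike genes; others are given as named after their values were seen. Symbols, gene order and promoter sequences come from RefSeq (GRCm38.p6); both genes matched. Protein sequences and detection calls were not used here.

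Tried as alternatives were pseudocounts (1, 50), quantile normalization, a signal floor (50), no filter or the 60th percentile, the mean over probe sets, no cross-hybridizing probe sets, every probe set, eBayes without trend or robust, leaving out each array, and a replicate block. Figures were drawn with matplotlib 3.10.9.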

Additional observations from a re-analysis of the deposited data

How the results depend on the processing

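The pair stayed higher in clone under every alternative run. For Tmem176a the difference of 4.90 became 5.00 with a pseudocount of 1, 4.76 with a pseudocount of 50, 5.01 with a floor of 50 and 5.09 with the mean over its probe sets, shifts larger than the 0.06 spread between arrays. For Tmem176b, read by 1 probe set, leaving out single arrays gave 5.50 to 6.25, set by which transgenic mouse remained; the other alternatives stayed within its spread of 0.31. Genes called numbered 2742 higher and 2706 lower; with every probe set tested on its own 5358 were higher and 5971 lower. Without single arrays the lower count ran from 1768, without transgenic replicate 1, to 2740. With the replicate block 2282 were higher and 2351 lower, and the block difference was 4.91 for Tmem176a and 5.89 for Tmem176b. The arrays share only a number: deviations of same-numbered arrays correlated at -0.03 and -0.08. Leaving out 1 transgenic array leaves a single one, assumed to vary like the clone arrays.

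Of 67 called list members and neighbours, 48 kept their call under all 17 alternatives, apart from settings that did not test them, 19 lost it in some and 1, Tra2a, reversed. Small list counts moved by over 1.5 times in places: B cell markers higher 0 to 2 and lower 1 to 2 (1 and 2), dendritic markers lower 1 to 4 (3), stromal markers lower 1 to 2 (1), type 17 genes lower 1 to 2 (1), acidification genes lower 1 to 3 (2), and T cell identity, class II and macrophage genes higher 0 to 1 (0 each). Without detection calls, whether the transgenic signals of the pair, 71.3 to 312.7, lie above background is not known, so the ratios can understate the difference. A comparison of the proteins was not run.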
